A study of Homo sapiens with 12 samples.

Results

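The alpha-globin gene region on chromosome 16 held 12 of the 24654 distinct nuclear intervals that make up the GATA1 and TAL1 peak lists of control K562 cells. Its members are all intervals of either list that overlap positions 90000 to 240000 of chromosome 16 in the human build hg19. The stretch holds NPRL3 and, in this order, the globin genes HBZ, HBM, HBA2, HBA1 and HBQ1. An interval with the same start and end in both lists is called shared. It was not tested whether the ends were set separately for each list. Identical ends may therefore not be read as agreement between separate peak calls. Of the 12 intervals, 4 were shared, 7 were in the GATA1 list only and 1 was in the TAL1 list only, so the region had 11 GATA1 and 5 TAL1 intervals. Over the whole lists, 30.9% of GATA1 and 78.9% of TAL1 intervals were shared.

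K562 is a human erythroleukemia cell line that makes embryonic and fetal globins. Nuclei were digested with micrococcal nuclease, and chromatin of mono- or dinucleosome size was precipitated with an antibody against GATA1 or TAL1 and sequenced (ChIP-seq). The series has 12 libraries from control cells and from cells in which a lentiviral shRNA vector knocked down GATA1 or TAL1, with 1 library for each combination of antibody and condition. The intervals of 2 libraries were used here, GATA1 and TAL1 in cells of the control genotype; the labels do not say whether these cells carried a control vector. The other 10 libraries, namely H3K27ac and LDB1, the unprecipitated input and GATA1 and TAL1 in knockdown cells, were not analysed here. No value below has a replicate error, and nothing below measures an effect of either knockdown.

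The lists give a start and an end for each interval and no height, so presence in a list is the only measure of binding. Sequencing depth is unknown, and an interval missing from a list does not show that the factor was absent. Positions of intervals are those of hg19, counted from 1. The gene positions used are rounded to 1 kb (NPRL3 134 to 189 kb, HBZ 203 to 205 kb, HBM 216 kb, HBA2 223 to 224 kb, HBA1 227 to 228 kb and HBQ1 230 to 231 kb), so distances to genes are given in whole kb and can be off by about 1 kb.

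The alpha-like globin genes lie in a row in roughly the order in which they are used in development. HBZ encodes the embryonic zeta chain, HBA2 and HBA1 encode the same alpha chain of fetal and adult hemoglobin, and HBM and HBQ1 encode mu- and theta-globin, relatives of low abundance. Their expression in red cell precursors depends on enhancers upstream of HBZ, several of them inside introns of the neighbouring gene NPRL3, whose own product is a subunit of a complex that restrains mTORC1. The best known of these enhancers is HS-40, and RefSeq lists that name among the synonyms of NPRL3. GATA1 is a zinc finger factor required for red cell maturation, while TAL1, a basic helix-loop-helix protein, is found with it, LMO2 and LDB1 on erythroid enhancers.

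RefSeq promoter sequences could be matched for 2 of the 6 genes, NPRL3 and HBM. These 2 are shown because no others could be matched, and neither promoter had an interval. NPRL3 is transcribed leftward, so its promoter lies at its end at 189 kb, and the nearest interval lay 4 kb beyond that end. For HBM the nearest interval lay 9 kb away. Each run is the 250 bases before the transcription start, 5′ to 3′ on the strand of the gene, in build GRCh38.p14, whose positions are not comparable with the hg19 positions of the intervals. Capitals mark matches to the motifs searched on both strands.
HBM (chr16:165728-165977, plus strand): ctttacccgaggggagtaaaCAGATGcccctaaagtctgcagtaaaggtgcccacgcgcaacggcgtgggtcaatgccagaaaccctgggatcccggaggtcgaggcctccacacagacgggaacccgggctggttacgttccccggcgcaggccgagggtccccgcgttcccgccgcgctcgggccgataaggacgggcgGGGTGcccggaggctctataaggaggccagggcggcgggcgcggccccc
NPRL3 (chr16:138674-138923, minus strand): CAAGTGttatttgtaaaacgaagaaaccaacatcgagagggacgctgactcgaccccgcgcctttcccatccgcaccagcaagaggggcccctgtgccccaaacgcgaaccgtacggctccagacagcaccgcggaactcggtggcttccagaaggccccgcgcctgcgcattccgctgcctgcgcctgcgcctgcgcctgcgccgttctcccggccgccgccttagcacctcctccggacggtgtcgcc

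The HBM run held CAGATG, an E-box of the general form CANNTG that basic helix-loop-helix factors can bind, starting at position -230, and CACCC on the opposite strand (GGGTG) at position -49. The NPRL3 run held 1 E-box, CAAGTG, at position -250. Neither run held a GATA motif (GATA after A or T and before A or G, as in AGATAA), an NF-E2 type site (TGACTCA, its reverse complement or the variant TGCTGAG) or the composite motif CTG followed by GATA after 8 or 9 bases of any kind. The HBM run does hold GATAAG after a C, which this definition of the GATA motif leaves out. Over all 35116 RefSeq promoters, the same 250 bases held a GATA motif in 22.3%, CANNTG in 61.8%, CAGATG in 12.2%, CACCC in 54.7%, an NF-E2 type motif in 8.96% and the composite motif in 3.22%. CANNTG includes CAGATG, so those counts overlap. GC content was 69.2% in the HBM run and 66.4% in the NPRL3 run. A match is a description of the letters only.

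**Figure D1:**
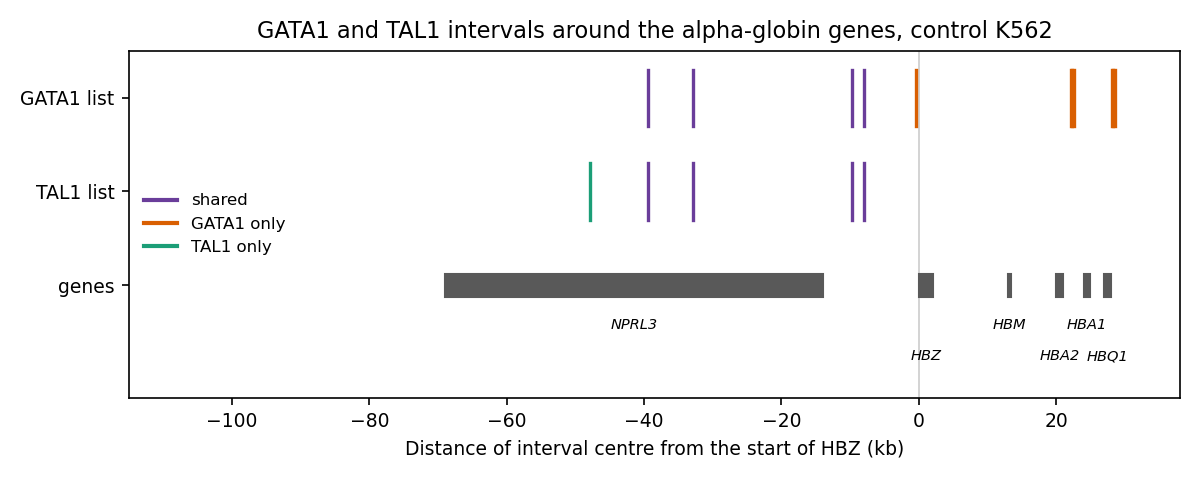
Map of the 12 intervals, with distance from the start of HBZ in kb on the x axis and the GATA1 list, the TAL1 list and the genes as lanes; vertical bars mark interval centres and are not drawn to width, gene positions are rounded to 1 kb, and HBM, given as 1 position, is drawn slightly widened. The 5 TAL1 intervals all lie before HBZ, whereas 7 of the 11 GATA1 intervals lie beside the start of HBZ or after it.

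Shared intervals lay upstream of HBZ, and GATA1-only intervals lay beside HBZ and after it. Of the 5 intervals more than 5 kb before HBZ, 4 were shared and the most distal was in the TAL1 list only. From the interval at HS-40 to the one 8 kb before HBZ, all 4 GATA1 intervals were also TAL1 intervals (exact 95% interval 39.8 to 100%, counting error only). From the interval beside HBZ onwards, none of 7 GATA1 intervals was (0 of 7, exact 95% interval 0 to 41.0%, counting error only). Of those 7, 6 lay in 2 runs of closely spaced intervals, whereas the exact interval treats all 7 as independent. The division of the region at HBZ was made after the positions were seen and has no test. Over the region, 4 of 11 GATA1 intervals (36.4%, exact interval 10.9 to 69.2%) were shared, against 30.9% of all GATA1 intervals, and 4 of 5 TAL1 intervals (80%, 28.4 to 99.5%) were shared, against 78.9% of all TAL1 intervals. The totals for the region were thus near those of the whole lists, while the shared and the GATA1-only intervals lay in separate stretches of it.

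The most distal member was the only TAL1-only interval. It lay at 154905 to 155278 (374 bp) inside NPRL3, 48 kb before HBZ, 61 kb before HBM, 68 kb before HBA2, 72 kb before HBA1 and 75 kb before HBQ1. A hypersensitive site named HS-48 for its distance from HBZ is known there from other work; the match rests on distance alone. The nearest GATA1 interval was the shared one at HS-40, 8.0 kb away, against a median of 13.0 kb over all 1885 TAL1-only intervals. No interval of either list came before it on chromosome 16, so the first 64.9 kb from position 90000 onwards held no interval of either list. In RefSeq order POLR3K, SNRNP25, RHBDF1 and MPG come before NPRL3 on the chromosome.

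HS-40, which lies near 163 kb, had an interval in both lists. It ran from 163279 to 163833 (555 bp) inside NPRL3 and lay 39 kb before HBZ, 52 kb before HBM, 59 kb before HBA2, 63 kb before HBA1 and 66 kb before HBQ1. The widest member of the region was the next shared interval, at 169800 to 170400 (601 bp), also inside NPRL3. It lay 33 kb before HBZ, the distance that gives the known site HS-33 its name, 46 kb before HBM, 53 kb before HBA2, 57 kb before HBA1 and 60 kb before HBQ1. The match to HS-33 rests on distance alone. The intervals at HS-40 and 33 kb before HBZ were wider than most shared ones, at percentiles 84.2 and 88.6 of the 7029 shared intervals, whose median was 373 bp.

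A pair of shared intervals lay in the stretch between NPRL3 and HBZ, 1.42 kb apart. The first, at 193067 to 193359 (293 bp), was 10 kb before HBZ, the distance of the known site HS-10, 23 kb before HBM, 30 kb before HBA2, 34 kb before HBA1 and 37 kb before HBQ1. Its match to HS-10 likewise rests on distance alone. The second, at 194779 to 195210 (432 bp), was 8 kb before HBZ, 21 kb before HBM, 28 kb before HBA2, 32 kb before HBA1 and 35 kb before HBQ1. It was the TAL1 interval closest to each of the 5 globin genes. Their widths were at percentiles 30.2 and 63.5 of shared intervals, so this pair did not stand out in width.

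A GATA1 interval lay close before the start of HBZ. The interval at 202523 to 202751 (229 bp) was in the GATA1 list only and ended at the start of HBZ within the 1 kb rounding of the gene. It lay 13 kb before HBM, 20 kb before HBA2, 24 kb before HBA1 and 27 kb before HBQ1, and 7.31 kb from the nearest TAL1 interval. The other 6 GATA1-only intervals lay 29.8 to 36.2 kb from a TAL1 interval. The median over all GATA1-only intervals was 37.8 kb, so those 6 were at ordinary distances. After the interval beside HBZ came 22.2 kb without an interval of either list, a stretch that holds HBZ, HBM and HBA2. Gaps of at least this length made up 47.6% of all gaps between neighbouring intervals.

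**Figure D2:**
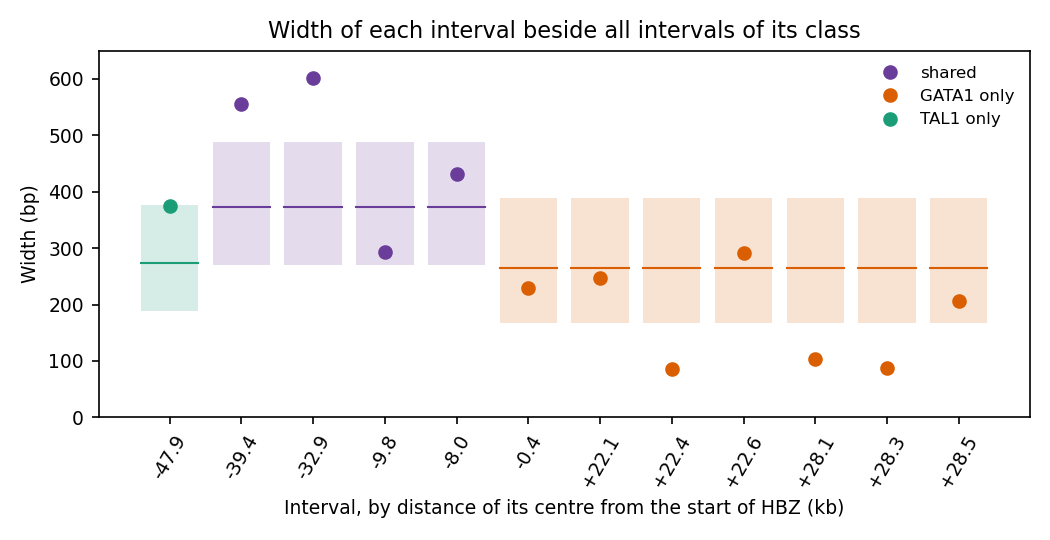
Width in bp of each of the 12 intervals (points), ordered by distance of the interval centre from the start of HBZ in kb (itself rounded to 1 kb), beside the median (line) and interquartile range (box) of all intervals of the same class. The intervals at HS-40 and 33 kb before HBZ lie above the box of shared intervals, and 3 GATA1-only intervals of 85, 87 and 104 bp lie below theirs.

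The remaining 6 GATA1 intervals came as 2 runs of 3, with gaps of at most 87 bp inside each run. The first run, at 225000 to 225745, lay between HBA2 and HBA1, 1 kb after the former and 1 to 2 kb before the latter, 20 kb after HBZ, 9 kb after HBM and 4 to 5 kb before HBQ1. Its intervals were 225000 to 225246 (247 bp), 225309 to 225393 (85 bp) and 225455 to 225745 (291 bp), with gaps of 62 and 61 bp. The second run, at 231070 to 231630, lay at the end of HBQ1, 26 kb after HBZ, 15 kb after HBM, 7 kb after HBA2 and 3 kb after HBA1. Its intervals were 231070 to 231173 (104 bp), 231261 to 231347 (87 bp) and 231425 to 231630 (206 bp), with gaps of 87 and 77 bp. Whether the first of these overlaps the end of HBQ1 cannot be said at the 1 kb rounding of the gene. An interval of 85 bp is as narrow as the narrowest in either list.

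**Figure D3:**
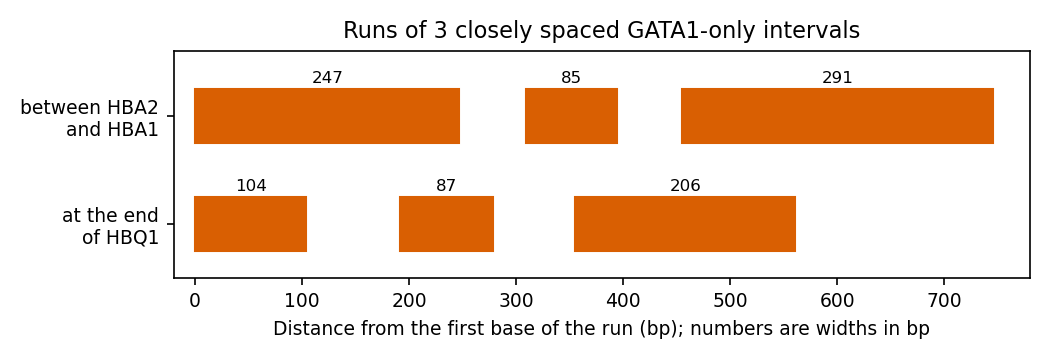
The 2 runs of GATA1-only intervals drawn to scale, with distance from the first base of the run in bp on the x axis and the width of each interval in bp above it. In both runs a narrow middle interval of 85 or 87 bp stands between neighbours separated from it by 61 to 87 bp.

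Such runs were rare in the lists. Consecutive GATA1-only intervals with gaps of at most 100 bp formed 13 runs of 3 or more, on 10 chromosomes, and 2 of the 13 were these. They took up 39 of the 15740 GATA1-only intervals (0.248%), against 6 of the 7 in the region. The gap of 5.32 kb between the runs of the region made them the only 2 neighbouring runs within 10 kb of each other. Centres inside the runs of the region were 182.5 to 249 bp apart, and the median over all 13 runs was 245 bp (interquartile range 199 to 312 bp). The limits of 100 bp and 10 kb were chosen after the gaps of the region were seen, so the 6 of 7 followed from that choice. With a limit of 200 bp there were 40 runs, 2 of them in the region, and with a limit of 50 bp there were 2 runs, 0 of them in the region. Whether the members of a run are separate sites or pieces of 1 enriched stretch was not tested.

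With gaps of up to 2 kb joined, the 12 intervals made 7 sites. TAL1 alone held 1 site, both factors held 3 (HS-40, the one 33 kb before HBZ and the pair before HBZ), and GATA1 alone held 3 (beside HBZ, between HBA2 and HBA1, and at HBQ1). On this count 3 of 6 sites with GATA1 also had TAL1 (50%, exact 95% interval 11.8 to 88.2%), against 33.6% of all such sites. With the genes rounded to 1 kb, no interval of either list lay within a globin gene. The GATA1 intervals beside HBZ and at the end of HBQ1 were too close to tell, whereas the nearest TAL1 interval was 8 kb before HBZ. HBA2 and HBA1 encode the same protein and are near-identical copies. The sources used here do not give how reads that match both copies were placed, so the lack of an interval on either gene may not be read as a lack of binding.

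**Figure D4:**
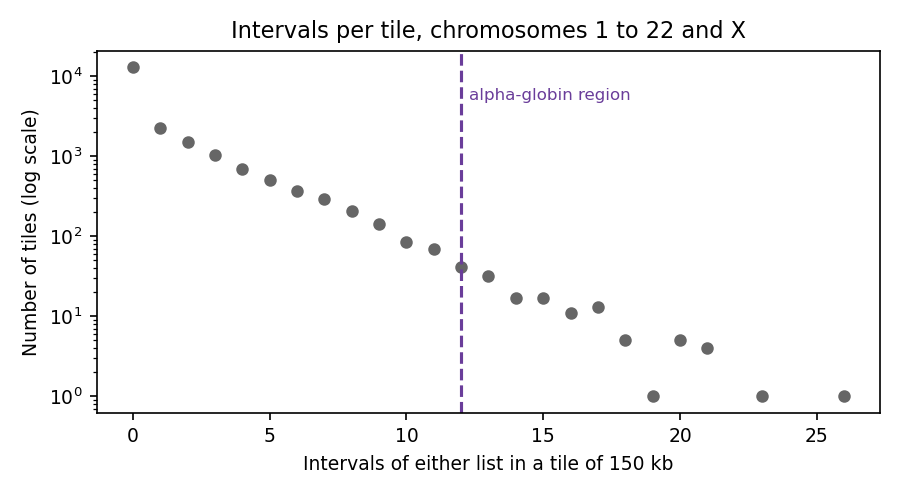
Number of 150 kb tiles (log scale) by the number of intervals of either list that they hold, over chromosomes 1 to 22 and X; the dashed line marks the alpha-globin region, with 12 intervals. Tiles with at least 12 intervals numbered 148 of 20255, including the tile that holds all 12 intervals of the region.

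The region was dense in intervals for both factors. Its 12 intervals in 150 kb correspond to 80 per Mb, 9.85 times the 8.12 per Mb of chromosomes 1 to 22 and X and 8.68 times the 9.22 per Mb of chromosome 16. Intervals covered 2.34% of the region, against 0.264% of chromosomes 1 to 22 and X. Fixed tiles of the same length held at least 12 intervals in 0.731% of cases, at least 11 GATA1 intervals in 0.899%, at least 5 TAL1 intervals in 1.28% and at least 4 shared intervals in 1.85%. Of the 20255 tiles, 12932 held no interval. Among tiles with at least 1 interval of the kind counted, the same shares were 2.02% for all intervals, 2.60% for GATA1, 5.62% for TAL1 and 9.58% for shared intervals. Counted as joined sites, at least 7 were found in 2.26% of all tiles. The region was drawn around known enhancers and genes while the tiles were not, so these shares describe its place and are no test. Among the 148 tiles with at least 12 intervals, a median of 32.5% of the GATA1 intervals were shared (interquartile range 23.1 to 43.8%). That range includes the 36.4% of the region. The 148 tiles include the tile that holds all 12 intervals of the region, so the region is part of this comparison. All 12 intervals fell within 76.7 kb, and the next interval on the chromosome, at 285346 to 285769, came 53.7 kb after the last.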

How the data were processed

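GATA1 and TAL1 ChIP-seq intervals of control K562 cells were used, 1 library each, grouped by sample title. The authors deposited intervals as chromosome, start and end, with no other value. Trimmomatic, Bowtie2, MACS2, deepTools and build hg19 are named per the submitters' processing notes, without versions or thresholds. The sources used here do not say whether peaks were called per library, and depth is unknown. Across the lists, 7029 intervals had identical ends, and intervals with different ends never overlapped (smallest gap 37 bp). Whether ends were set for each library on its own was not tested. Intervals were classified by identical start and end (Python 3.11.15, pandas 2.3.3, numpy 2.4.6). Mitochondrial intervals (4, TAL1 list) were left out. Shares carry exact Clopper-Pearson 95% intervals (scipy 1.17.1) that cover counting error only and treat neighbouring intervals as independent. Chromosome lengths were those of circlize 0.4.16, and figures were drawn with matplotlib 3.10.9. Tiles of 150 kb began at each chromosome's first base, and intervals were counted by their centres. Gene positions were taken in whole kb with the definition of the region. RefSeq gene order and promoters are those of GRCh38.p14. The counting functions were tested on simulated intervals. The named genes were the 6 members and their neighbours, and every interval of the region is described. The members, gene list and alternatives were chosen with earlier results of these data known. Motifs were searched in promoters only, because no hg19 sequence was used here.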

Additional observations from a re-analysis of the deposited data

How the results depend on the processing

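Each of the 33 alternatives changed 1 choice, and 25 were counted as leaving the value close to that reported. Among these 25, limiting the region to NPRL3 through HBQ1 left 9 of 12 intervals and dropped the run at the end of HBQ1. The share of GATA1 sites with TAL1, 50% against 36.4% over intervals, was also among them. Distinct intervals of the 2 lists never overlapped (smallest gap 37 bp). Counting overlaps of at least 1 bp could therefore only return the shares for identical ends. The shares counted over joined sites and the other gap limits for runs were added after the data were seen. Leaving out intervals narrower than the median of 297 bp left 4 of 12 intervals, and 3 of the 3 GATA1 intervals among them were shared (100%), since the 7 GATA1-only intervals were narrower. A gap limit of 50 bp left 0 runs in the region, against 2. With the TAL1 list alone, the nearest interval lay 8 kb from HBZ, 21 kb from HBM, 28 kb from HBA2, 32 kb from HBA1 and 35 kb from HBQ1, against 0, 9, 1, 1 and 0 kb with both lists. The search for motifs inside intervals was not run. No paired analysis was possible because each antibody has 1 library per condition, and no replicate could be left out. Depth is unknown, so it cannot be said which missing intervals a deeper library would add.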
